A study of Zea mays with 42 samples.

Results

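pdi3 (GRMZM2G134889) and der2 (GRMZM2G082976) are 2 maize genes of the endoplasmic reticulum (ER). Their signals were followed over 14 tissues of the untreated inbred line B73 on 42 Affymetrix maize arrays, 3 biological replicates per tissue. The members were all probe sets that the gene tables assign to either gene, and probe sets with the symbol der1, pdi1 or pdi2 were looked for as well. This gave 3 probe sets of 17734 on the array: for pdi3 an _a_at probe set, which is used for the gene unless stated, and an _at probe set, called the second probe set, and for der2 1 probe set. No probe set carried exactly the symbol der1, pdi1 or pdi2, and the relatives named pdi and DER1.1 are described with the other ER genes. The tissues were embryo and endosperm at 10, 15, 20 and 25 days after pollination (DAP), root, stem, stem tip and leaf of vegetative plants, and ear and silk taken before pollination. Each value is a MAS5 signal, a linear brightness that summarizes the short oligonucleotides of a probe set, and signals are compared between tissues of one probe set and not between genes.

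A protein disulfide isomerase makes and rearranges the disulfide bonds of proteins that fold in the lumen of the ER. Derlins are membrane proteins of ER-associated degradation, in which proteins that fail to fold are moved out of the ER and broken down. In maize endosperm the ER is also where zeins, the main storage proteins, are made and packed into protein bodies. Other members of the folding machinery are the chaperone BiP, the lectin chaperones calreticulin and calnexin, and the signal recognition particle, which brings ribosomes to the ER membrane.

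Both genes stand head to head with a gene on the opposite strand. In the study's annotation, whose genome build is not given in the sources used here, pdi3 lies on the minus strand of chromosome 4 from 241233055 to 241239106. Its neighbour GRMZM2G134806 lies on the plus strand from 241239335 to 241241698, so that 229 bp separate the annotated 5′ ends. der2 lies on the plus strand of chromosome 5 from 923899 to 928546, and its neighbour GRMZM2G083081 on the minus strand from 920313 to 923543, at a distance of 356 bp. The study designed primers on the region between pdi3 and its neighbour, and they are shown as the designed ends of that region. They do not show whether both genes are driven from it. The ends need not be the annotated 5′ ends, since the paper describes recloning its expression-picked regions up to each start codon. Capitals mark the added XbaI or NcoI cutting site.
b18f: TCTAGAtgatgtgctgcagccgtc
b18r: CCATGGtcttgtttcccttccc
7-16f: ctTCTAGAcggtctcacctgatgatgtgc
7-16r: gtcCCATGGtcttgtttcccttcccttagc
After the cutting site the primers b18r and 7-16r share a run of 16 bases, and b18f and 7-16f share a run of 8 bases.

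Replicates of a tissue correlated over all probe sets with a median r of 0.991. The lowest mean r to the other arrays of a tissue was 0.931, for replicate 1 of root. Replicates 2 (0.958) and 3 (0.959) of root came next, then replicates 2 (0.964) and 1 (0.971) of stem and replicate 3 of ear (0.973). Trimmed means per array ran from 897 to 1031 in endosperm, 997 to 1079.6 in embryo and 1141 to 1257 in the non-seed tissues. Folds between seed and non-seed tissues were recomputed under 3 other scalings, and the part of this difference in them was not otherwise tested. Zein and starch synthesis genes (11 genes) had their highest summed signals in endosperm, and embryo storage, oil body and late embryogenesis genes (4 genes) in embryo. In endosperm the median sum of the latter was 7597, 2215, 3721 and 15956 in order of age. It was 27101, 35162, 63044 and 74220 in embryo, and 305 to 424 in the non-seed tissues. The source of the signal of these 4 genes in endosperm was not tested. Photosynthesis genes (7) were highest in leaf. Root genes (4), for nicotianamine synthases, a nitrate transporter and an O-methyltransferase, were highest in root. The 13 meristem and flower genes were highest in silk, with a median summed signal of 42476, against 24920.1 in ear and 7392 in stem tip. Of them 11 had a mean of at least 100 in silk, 12 in ear and 4 in stem tip.

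pdi3 was expressed in all tissues and was low in only leaf. All 3 pdi3 and der2 probe sets had a signal of at least 100 on all 42 arrays. The leaf arrays read 467, 428 and 402 for pdi3, a mean of 432 ± 32.8 (SD, n = 3), and no other array of the 42 was below 800.4. In root the signals were 905, 1265 and 1106, and in stem tip 800.4, 1249.8 and 1377. These 2 tissues and silk, with 1142, 1173 and 1659, overlapped one another. Stem read 1797, 1099.5 and 1574. Ear read 1906, 1787 and 2153, the highest mean outside the seed (1949 ± 187), and its 3 arrays lay above all those of root, stem tip and silk. The 3′ to 5′ signal ratio of control genes, a sign of RNA quality, moved with part of this pattern: its log2 mean was 0.36 in leaf, 0.53 in root and 0.64 in stem tip, but 1.48 in stem, 1.54 in ear and 2.03 in silk. The stem array of 1099.5 had a log2 ratio of 0.63, against 1.85 and 1.95 on the other stem arrays, and the stem tip array of 800.4 had 0.04. With this ratio as a covariate pdi3 was still called lower in leaf than in the other non-seed tissues, at -1.28 on the log2 scale in place of -1.64. Here, as in any bulk sample, fewer cells of a type and less RNA per cell cannot be told apart.

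In the embryo pdi3 rose with age. The signals were 1254, 1263 and 1225 at 10 DAP and 1545, 1609 and 1506 at 15 DAP. At 20 DAP they were 2059, 1839 and 2098 and at 25 DAP 1706, 2046 and 1932. The arrays of the first pair of stages did not overlap with each other or with the later ones, while 20 and 25 DAP overlapped. The highest mean over the 14 tissues was that of the embryo at 20 DAP, 1999 ± 140.

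Endosperm showed much the same course for pdi3. Its signals were 1101, 1011 and 985 at 10 DAP and 1275, 1390.0 and 1345 at 15 DAP. They reached 1874, 1761 and 1730.4 at 20 DAP and 1743, 1885 and 1675 at 25 DAP. As in the embryo, the first stages stood apart and the last ones overlapped. From the lowest tissue, leaf, to the highest, the mean of pdi3 changed 4.63 times, and of the 13 steps between neighbours in the order of means 2 were free of overlapping arrays, that from leaf to endosperm at 10 DAP and that from embryo at 15 DAP to endosperm at 25 DAP.

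**Figure D1:**
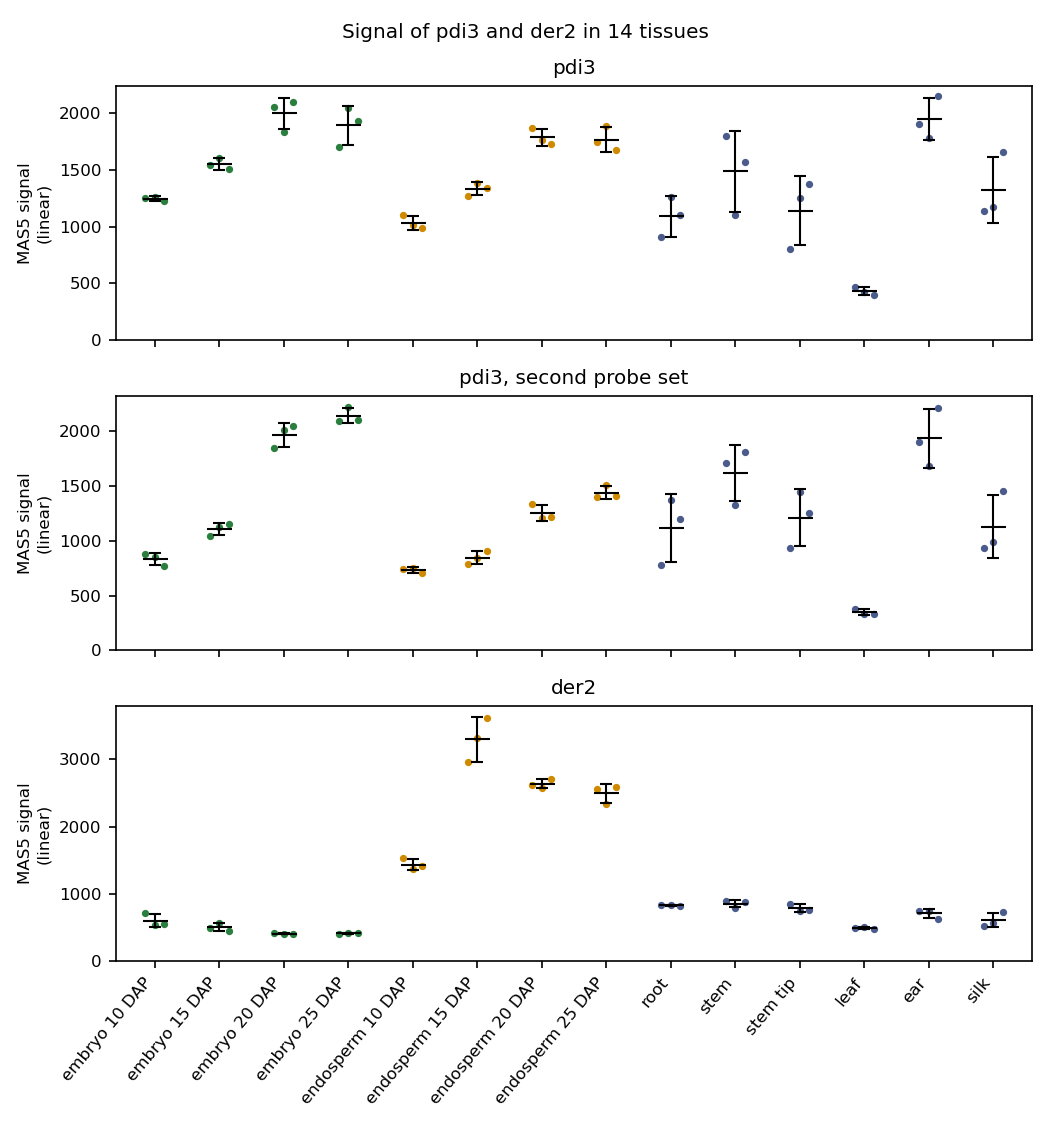
MAS5 signal (linear, axis from 0) of pdi3, of its second probe set and of der2 in 14 tissues; points are the 3 arrays of a tissue (green embryo, orange endosperm, blue non-seed), bars the mean ± SD. Leaf is the lowest tissue of pdi3 at 432, and the 12 endosperm arrays of der2, 1367 to 3621, lie above all 30 others.

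der2 was marked by the endosperm. At 10 DAP its endosperm signals were 1525, 1367 and 1405. At 15 DAP they were 2959, 3319 and 3621, the highest mean of the 14 tissues (3299.7 ± 331). The signals then read 2615, 2581 and 2713 at 20 DAP and 2563, 2332 and 2585 at 25 DAP. All 12 endosperm arrays lay above the other 30, whose highest was 882 in a stem array. The 10 DAP arrays stayed below all later ones, and those of 20 and 25 DAP overlapped.

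The embryo at 20 and 25 DAP had the least der2 signal of the 14 tissues. The embryo arrays read 706, 533 and 549 at 10 DAP, and 488, 557 and 446 at 15 DAP. At 20 DAP the 3 signals were 409.7, 397 and 394, and at 25 DAP 401, 417 and 407. These later embryos differed little among replicates (SD 8.34 and 7.92) and lay below every endosperm and non-seed array.

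Outside the seed der2 was at an intermediate level. Root read 831, 832 and 814, stem 882, 789.7 and 879, and stem tip 846, 745 and 754. Ear gave 738, 743 and 626, and silk 519, 564 and 725. Leaf was again the lowest of the non-seed tissues, with 480.4, 499 and 465. Root, stem and stem tip overlapped in the order of means, as did leaf with the embryo at 15 DAP. The highest tissue mean of der2 was 8.25 times the lowest, and 5 of the 13 neighbour steps were free of overlap.

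The second probe set of pdi3 followed the first at r = 0.91 (rho 0.86) over the 14 tissue means, a description over probe sets read from the same arrays. It too was lowest in leaf (379.7, 334 and 332). It was highest in embryos at 25 DAP, with 2095, 2222 and 2104, and its endosperm arrays stayed at or below 1507. The 2 probe sets thus agreed on leaf and on the rise with seed age, and differed in how the late embryo stood to endosperm.

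Embryo and endosperm of one age were compared first. A difference was called at a fold of at least 2 and an adjusted p under 0.05 in limma, with Benjamini-Hochberg adjustment over 17621 probe sets. der2 was called lower in the embryo at all 4 stages, by a log2 fold of -1.27, -2.73, -2.72 and -2.61 in order of age (SE 0.11 each). The adjusted p-values in limma were 2.91e-11, 7.29e-20, 6.54e-20 and 2.32e-19. The mean signal of the embryo was 41.6%, 15.1%, 15.2% and 16.4% of that of the endosperm. Of all probe sets, 6.78%, 15.9%, 20.2% and 21.4% were called lower at these ages. Under all 14 alternatives run, der2 kept these 4 calls.

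pdi3 was not called between embryo and endosperm at any stage. Its log2 folds were 0.27, 0.22, 0.16 and 0.10 in order of age (SE 0.16 each), with adjusted p-values of 0.153, 0.229, 0.377 and 0.591 in limma. The 95% intervals reached from -0.05 to 0.60 at 10 DAP and from -0.23 to 0.42 at 25 DAP, and did not hold a fold of 2 on this scale. The values depended on the scaling in both directions. Centring arrays on their medians gave -0.05 at 25 DAP, and centring on hybridization controls gave 0.97 at 20 DAP and 0.89 at 25 DAP, still under the fold threshold. The second probe set was also under the fold threshold, but at 20 DAP its difference of 0.65 (SE 0.16, adjusted p = 0.00070 in limma) had a 95% interval from 0.32 to 0.99. Centred on hybridization controls it was called higher in embryo at 20 DAP (1.46, adjusted p = 3.77e-07 in limma) and 25 DAP (1.37, adjusted p = 1.15e-06 in limma). Either direction was called for 19.4%, 33.9%, 39.1% and 39.7% of all probe sets at the 4 stages.

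**Figure D2:**
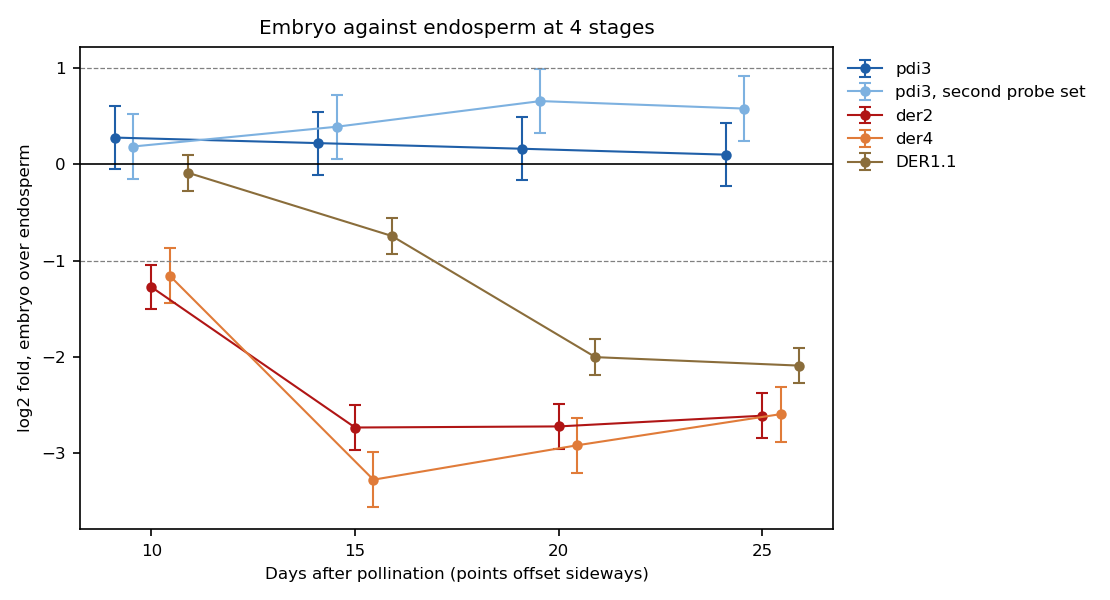
log2 fold of embryo over endosperm (vertical axis) at 10, 15, 20 and 25 DAP for the probe sets of pdi3, for der2 and for 2 other derlin genes; points are limma estimates, bars 95% intervals, dashed lines a fold of 2. pdi3 stays between 0.10 and 0.27, while der2 lies between -2.73 and -1.27.

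Zein signal was traced because endosperm tissue on embryo arrays would add to it, but the source of zein signal in embryo was not tested. Summed over 8 zein genes, the median embryo array had 16.4%, 2.80%, 2.36% and 1.67% of the endosperm signal, from the youngest stage to the oldest. The same sum was 1804 to 2136 on embryo arrays at 25 DAP and 654 to 1537 on non-seed arrays, so part of it may be background. The embryo arrays with most zein signal were replicate 1 at 10 DAP (18821) and replicate 2 at 15 DAP (18640), and each also had the highest der2 signal of its stage, 706 and 557. Without these 2 arrays, an alternative chosen after the data were seen, the log2 fold of der2 was -1.40 at 10 DAP and -2.82 at 15 DAP. The part of endosperm tissue in the der2 signal of the remaining embryo arrays was not tested.

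**Figure D3:**
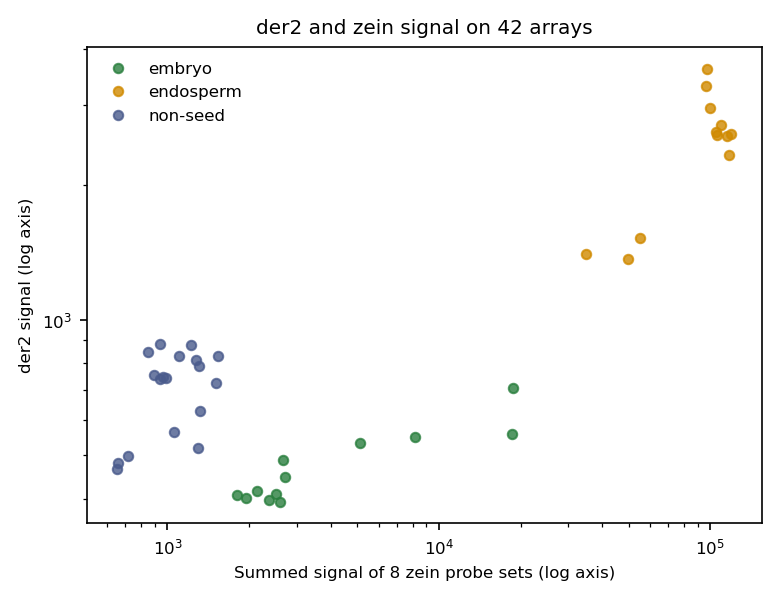
der2 signal (vertical) against the summed signal of 8 zein genes (horizontal) on the 42 arrays, both log axes; each point is an array, coloured by embryo, endosperm or non-seed. The non-seed arrays had less zein signal than the embryo arrays but der2 signals of 465 to 882, and all endosperm arrays lie at the upper right.

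Against the 6 non-seed tissues, der2 was called higher in endosperm by 1.77 on the log2 scale (SE 0.05, adjusted p = 1.58e-25 in limma), a direction called for 16.8% of probe sets. In the embryo it stood at -0.57 (SE 0.05), under the fold threshold, and 28.6% of probe sets were called in either direction. pdi3 was not called in either seed tissue, with 0.37 in endosperm and 0.56 in embryo (SE 0.07 each), although both adjusted p-values in limma, 2.11e-05 and 2.11e-08, were under 0.05. The second probe set gave -0.06 (SE 0.07, adjusted p = 0.422 in limma) in endosperm, so that the probe sets of pdi3 did not share a direction there. Over the 14 alternatives the endosperm value ran from 1.36 to 2.05 for der2 and from -0.04 to 0.81 for pdi3.

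The leaf was compared with the mean of the other 5 non-seed tissues because its level of pdi3 stood apart, so this comparison was chosen with the levels known. pdi3 was called lower in leaf by -1.64 (SE 0.12, adjusted p = 1.05e-13 in limma), a fold of 3.13, and the second probe set by -1.95 (SE 0.13, adjusted p = 2.43e-15). For der2 the value was -0.63 (SE 0.09), under the fold threshold. Of all probe sets 18.3% were called lower in leaf and 33.0% in either direction.

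The change with age was compared between the 2 seed tissues. From 10 to 25 DAP pdi3 changed by 0.60 in embryo and 0.78 in endosperm (SE 0.16 each, adjusted p = 0.00213 and 0.000144 in limma). These are folds of 1.51 and 1.71, under the threshold. Over the alternatives pdi3 fell as low as 0.39 in embryo and 0.29 in endosperm. Its change did not differ detectably between the tissues, at -0.18 with a 95% interval from -0.64 to 0.28 (adjusted p = 0.555 in limma). The second probe set was called higher in the older embryo by 1.36 (SE 0.16, adjusted p = 2.06e-08 in limma), where 12.6% of probe sets were called higher. In endosperm this probe set rose by 0.97, under the fold threshold, and its difference of change between the tissues, 0.39, was not called.

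For der2 the changes were -0.53 in embryo and 0.80 in endosperm (SE 0.11 each), the latter 0.32 with arrays centred on hybridization controls. The difference between these changes was -1.33 (SE 0.16, adjusted p = 6.71e-08 in limma) and was called, as were 13.8% of probe sets in that direction. With arrays centred on hybridization controls it was -0.75 (adjusted p = 0.0536 in limma) and lost its call. Most of the endosperm change lay between 10 and 15 DAP, where der2 was called higher by 1.20 (SE 0.11, adjusted p = 3.29e-10 in limma), a direction called for 6.76% of probe sets. Centred on hybridization controls this step was 0.84, under the fold threshold. From 15 to 20 DAP it read -0.32 (adjusted p = 0.074 in limma) and from 20 to 25 DAP -0.08. The steps between neighbouring stages were added after the levels had been seen. Over the same steps pdi3 gave 0.37, 0.42 and -0.02 in endosperm and 0.32, 0.36 and -0.08 in embryo, none of them called, with adjusted p-values in limma of 0.0622 and above. The lowest value of pdi3 in endosperm at 15 against 10 DAP over the alternatives was 0.01. Over the 3 steps 12.1%, 1.57% and 4.40% of all probe sets were called in endosperm and 5.50%, 4.36% and 2.65% in embryo.

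pdi3 and der2 did not share a pattern over tissues. Their tissue means on the log2 scale had r = 0.13 (rho -0.16, n = 14), with r = -0.25 over the 8 tissues of the seed alone and 0.67 over the 6 others. These correlations are descriptions without a test, since tissues of one seed are not independent.

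The gene on the other strand was compared next. GRMZM2G134806 was highest in endosperm at 25 DAP (8593, 8767 and 8616) and lowest in leaf (4757, 4557 and 4428). It had r = 0.45 with pdi3 (rho 0.38), which was 0.37 over seed and 0.12 over non-seed tissues alone. In the ear, where pdi3 had its second highest mean, GRMZM2G134806 had its second lowest (5273, 5346 and 3255). Only the ear array of 3255 lay below the stem mean of 5162.5, so this rank rested on that array. GRMZM2G083081 was also highest in endosperm at 25 DAP, with 1169, 1066 and 1078, and lowest in root, with 429, 492 and 384. It had r = 0.54 with der2 (rho 0.27), which was 0.65 over seed and -0.66 over non-seed tissues alone. In embryo against endosperm at 15 DAP, where der2 differed most, GRMZM2G083081 differed by -0.63 (SE 0.17), under the fold threshold, and its embryo signals of 566, 579.8 and 585 lay below the endosperm signals of 901, 905 and 869.

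**Figure D4:**
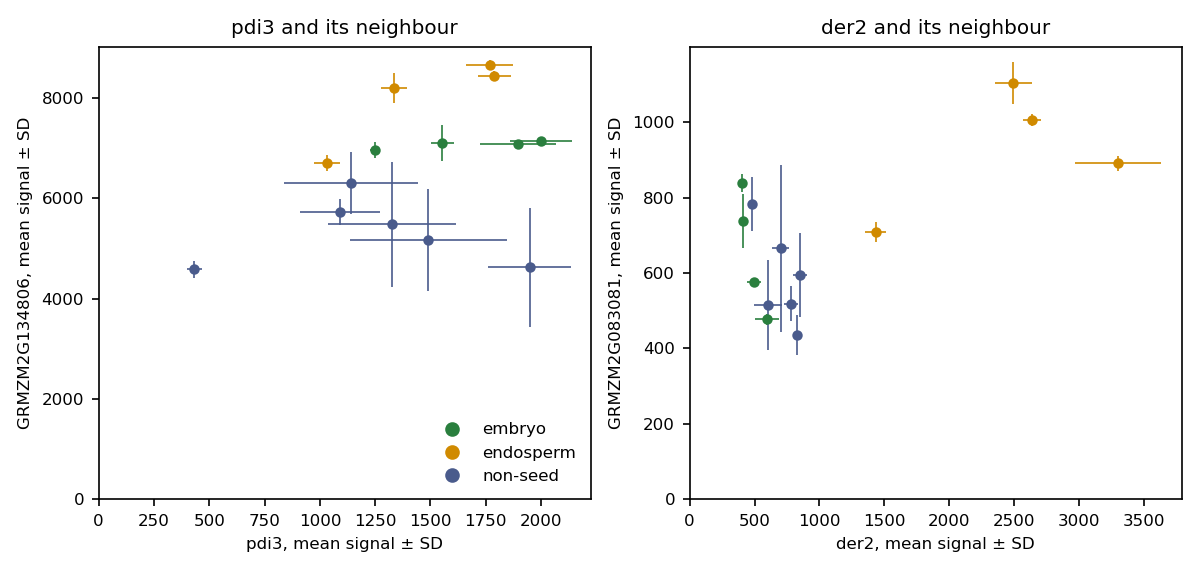
Mean signal ± SD of pdi3 and der2 (horizontal) against that of the gene on the opposite strand (vertical) in 14 tissues, linear axes from 0; each point is a tissue (n = 3 arrays). For der2 the 4 endosperm stages lie to the right, at 1432 to 3299.7, and the other tissues show no common rise with the neighbour.

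The patterns most like that of pdi3 were sought over 16145 other maize probe sets with a signal of at least 100 on at least 3 arrays. The closest was an _x_at probe set of pdi4, a further protein disulfide isomerase, with r = 0.98 (rho 0.94). The suffix _x_at marks oligonucleotides that can also match other transcripts, and pdi3 and pdi4 probe sets share a sequence cluster by their names on the array, and the part of shared sequence in this likeness was not tested. Other probe sets of pdi4 had r = 0.72 and 0.50 with pdi3. One of these read 319.9 in the embryo at 10 DAP but 89.8 in root and 55.5 in ear, a drop outside the seed that pdi3 lacks.

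Next in likeness to pdi3 were aldh2, an aldehyde dehydrogenase by its symbol (r = 0.95, rho 0.87), an unnamed probe set (0.91), igl1, an indole-3-glycerol phosphate lyase (0.91, rho 0.83), and an unnamed probe set (0.91). All 5 were lowest in leaf. aldh2 ranged from 150.4 in leaf to 4828 in ear. The 3 probe sets most opposite to pdi3 are unnamed here, had r of -0.94, -0.93 and -0.90, and were highest in leaf.

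The probe set most like der2 is unnamed (r = 0.98, rho 0.93) and ranged from 77.9 in the embryo at 25 DAP to 7204 in the endosperm at 20 DAP. A probe set of SH-1, the sucrose synthase of shrunken1, which supplies sugar for starch in endosperm, came second (0.97, rho 0.92). The other 3 are unnamed and also had their highest means in endosperm at 15 or 20 DAP. Within the 6 non-seed tissues the r of these 5 to der2 fell to between 0.35 and 0.87. The 3 most opposite, at -0.97, -0.96 and -0.96, were lowest in endosperm.

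Other ER genes that could be found by name put the members in context: 10 protein disulfide isomerases, 2 derlins, 2 BiP genes, calreticulin (CRT), calnexin (CNX) and SRP9 of the signal recognition particle, 17 genes, each read by its brightest probe set. The gene tables name only 1453 of the 17734 probe sets, so the list is partial. As planned it also held endoplasmin, ERO1, SEC61 and further ER genes, for which no probe set is listed. Of these 8 have several probe sets, which did not always share a call. der4 and DER1.1, the other derlins, followed der2 in part. der4 had r = 0.80 with der2 (rho 0.79) and DER1.1 had 0.61, over the 8 tissues of the seed alone 0.99 and 0.89, but over the 6 others -0.56 and -0.41. Such likeness was not particular to derlins. SRP9 (0.85) and the isomerase PDIL5-1 (0.84, and 0.99 in the seed) had a higher r with der2 than der4 had. The isomerases pdi11 (0.74) and pdi8 (0.69) lay above DER1.1, while other genes of the list went the opposite way, down to -0.68 for CRT. The other probe set of der4 had r = 0.82 with der2, 0.98 in the seed and 0.19 outside it, so the sign outside the seed differed between probe sets of der4. Leaf separated them: DER1.1 was called higher there (1.54, SE 0.07, adjusted p = 1.86e-19 in limma) where der2 was low. der2 and der4 probe sets share a sequence cluster by their names, and the gene table assigns the der2 probe set to GRMZM2G384070 as well. The part of shared sequence in the likeness of der2 and der4 was not tested.

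In embryo against endosperm all 3 derlins were called lower in the embryo at 20 and 25 DAP. der4 had log2 folds of -1.16, -3.27, -2.92 and -2.59 over the 4 stages. Its other probe set gave -0.83, -1.96, -1.47 and -1.36, not called at the first stage. DER1.1 was called only from 20 DAP on, at -2.0 and -2.09 (SE 0.09 each). Only in der2 did the endosperm also pass the call against the non-seed tissues, and this difference among derlins was not tested.

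The isomerases were mixed. At 20 DAP 3 of 10 were called lower in embryo and 1 was called higher. Those lower included pdi8 (-2.01, SE 0.14), and the one higher was pdi5 (2.36, SE 0.21), whose highest tissue mean was in silk (2310.2, 2111 and 3030.4). The other 6, like pdi3, were not called, but for pdi4 and pdi7 a further probe set was called higher (1.35 and 1.89). At 15 DAP PDIL5-1 (-1.48, SE 0.09), pdi8 (-1.37, SE 0.14) and pdi (-1.32, SE 0.12) were called lower, and pdi5 (1.79, SE 0.21) higher. Further probe sets of pdi11 (-1.26) and pdi7 (1.04) were called at that stage. CRT was called higher there (1.24, SE 0.10), but its other probe set was not (-0.01). Over all 17 genes the counts called higher and lower were 0 and 2 at the first stage, 2 and 6 at the second, 1 and 8 at the third and 1 and 7 at the last. Of all probe sets 12.7%, 18.0%, 18.9% and 18.4% were called higher at these stages, beside the shares lower given for der2. The median log2 fold of the 17 at 20 DAP was -0.63 against -0.16 over all probe sets tested. The BiP genes bip1 (-1.47, SE 0.09) and bip2 (-1.25, SE 0.11) were among the 8.

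Against the non-seed tissues 3 of the 17 were called higher in endosperm and 2 lower, where 37.7% of all probe sets were called and 20.9% were lower. SRP9 (1.33, SE 0.11), pdi (1.26, SE 0.05) and pdi12 (1.19, SE 0.06) were higher, in the direction of der2. pdi5 (-2.53, SE 0.09) and CRT (-1.25, SE 0.05) were lower. Probe sets differed in call for 4 genes: the lower of the SRP9 values was 0.37, the smaller decrease of CRT -0.39, and 1 further probe set each of pdi4 and of CNX (1.05) was called higher. In embryo pdi12 was called higher (1.17, SE 0.06) and der4 lower (-1.65, SE 0.06), where 13.1% and 15.5% of all probe sets were. The other probe set of der4 gave -0.81, not called, and a further one of pdi4 was called higher (2.58).

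In leaf 4 of the 17 were called higher and 4 lower, where 14.7% and 18.3% of all probe sets were. The 4 lower, among 10 isomerases of the 17, were pdi5 (-3.72, SE 0.16), pdi4 (-1.61, SE 0.12), pdi10 (-1.36, SE 0.16) and pdi7 (-1.25, SE 0.10). The higher ones were DER1.1, pdi8 (1.18, SE 0.11), bip2 (1.17, SE 0.08) and bip1 (1.00, SE 0.07), the last of which lost its call under 5 of the alternatives. Probe sets differed in call for pdi4, pdi7, pdi11 and CNX, whose highest values over their probe sets were -0.60, -0.99, -0.92 and 2.11.

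From 10 to 25 DAP the endosperm showed 3 of the 17 higher, DER1.1 (1.33, SE 0.09), bip2 (1.12, SE 0.11) and der4 (1.04, SE 0.14). pdi5 was lower (-1.17, SE 0.21), where 17.4% of probe sets were called, 12.3% higher and 5.12% lower. The other probe set of der4 gave 0.21, not called, and a further one of pdi7 was called lower (-1.27). In embryo pdi8 alone was called by the brightest probe sets, lower by -1.55 (SE 0.14). Of all probe sets 20.3% were called there in either direction and 7.72% lower. A further probe set of CRT was called lower as well (-1.07). The change differed between embryo and endosperm for 6 of the 17, with pdi5 more positive in embryo and 5 genes more negative. Of all probe sets 22.5% were called in either direction and 8.62% in that of pdi5. Further probe sets of pdi4 (1.24) and pdi7 (1.14) were called in the direction of pdi5, and the other of der4 gave -0.53, not called.

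**Figure D5:**
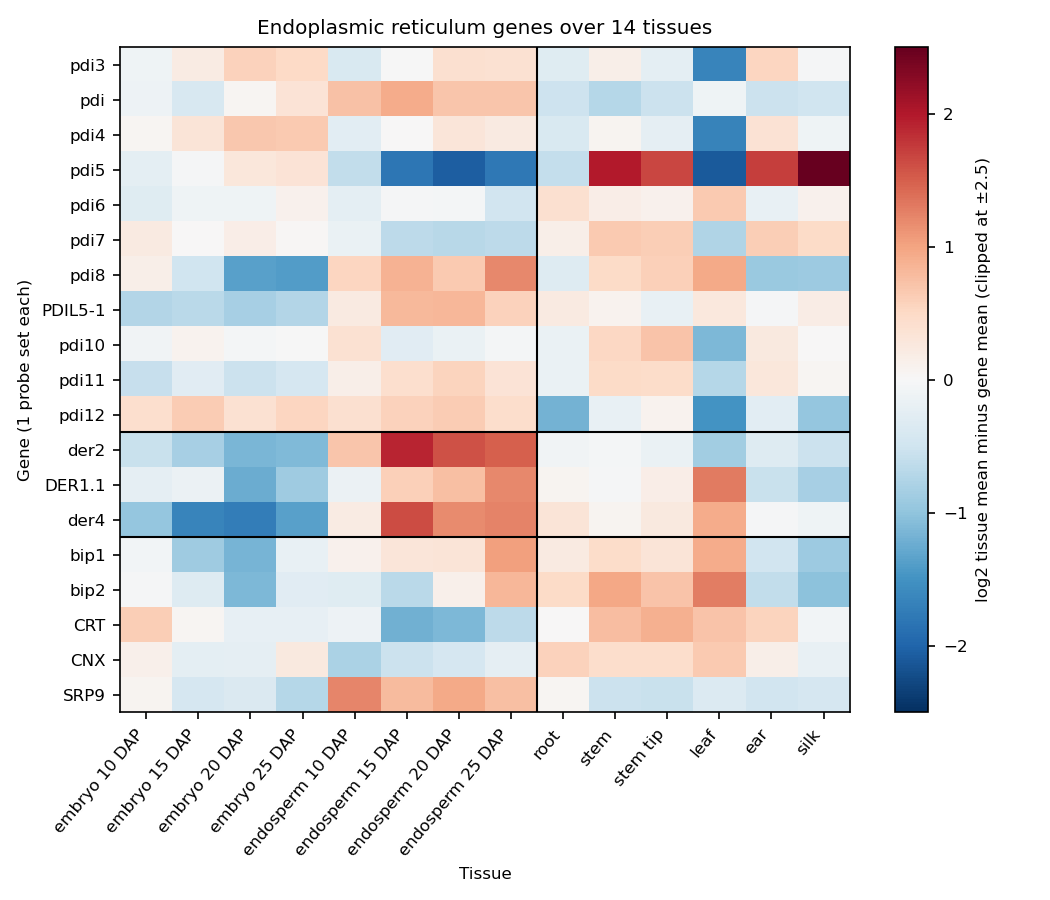
log2 tissue mean signal of 19 ER genes minus the mean of the gene over 14 tissues (colour, clipped at ±2.5); rows are isomerases, derlins and other ER genes, columns tissues, lines part seed from non-seed tissues. der2 and der4 are high in endosperm from 15 DAP on, and pdi3 is low in leaf with pdi4, pdi5, pdi7 and pdi10.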

How the data were processed

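Labelled RNA of 42 B73 samples was hybridised to Affymetrix maize arrays. The deposited values are intensity values: MAS5 signals on a linear scale, computed by the authors for each array. The version of MAS5 and its scaling target are not given in the sources used here. Arrays have no read depth, and their number, 3 per tissue, limits the precision. Signals of 17621 probe sets (17734 without 113 controls) were taken to log2, with no further scaling, and a group-means model was fitted in limma 3.58.1 (R 4.3.3, eBayes with trend). Benjamini-Hochberg adjustment ran over all of them. Called means a fold of 2 or more with adjusted p below 0.05. Order of tissues, likeness (Pearson r over 14 tissue means) and figures were computed in Python 3.11.15 with pandas 2.3.3.

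Genes named are the members, their opposite-strand neighbours, and the 5 probe sets with the highest and 3 with the lowest r to each member. ER genes are named from among the 3 called with the largest fold per direction and comparison, but not in every comparison. Further ER genes are named to complete a count or a comparison and were chosen after their values were seen. The members and gene lists were chosen with earlier results of these data known. A gene of the ER list with several probe sets was read by its brightest. Gene tables name 1453 probe sets, and 1377 were found in RefSeq. Alternatives were 3 other scalings, 32 added before log2, a minimum signal of 100 on 3 arrays, eBayes without trend, only the arrays compared, replicate number as a block, the 3′ to 5′ ratio of control genes as a covariate, and arrays left out.

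The share of calls that were higher depended on the scaling. For embryo against endosperm it was 65.1%, 53.0%, 48.3% and 46.2% in order of age, and 77.0%, 77.2%, 84.6% and 84.0% with arrays centred on hybridization controls, while centring on medians gave 51.0% and 40.4% at the first 2 stages. With these controls it went from 44.5% to 26.2% for endosperm against non-seed tissues and from 44.7% to 31.3% for leaf, where medians gave 55.2%. For the difference of change with age it went from 38.4% to 80.2%, and to 51.1% with quantiles. For endosperm at 25 against 10 DAP it was 70.6%, and 49.5%, 49.1% and 29.2% with quantiles, medians and hybridization controls. For the embryo it was 62.0%, and 46.1% with medians.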

Additional observations from a re-analysis of the deposited data

Results flagged for a closer look

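The change of der2 from 10 to 25 DAP differed between the seed tissues, embryo minus endosperm, by -1.33 on the log2 scale (adjusted p = 6.71e-08 in limma), with -0.53 in embryo and 0.80 in endosperm. The same test called 6 other ER genes. Among them pdi8 (-2.20), DER1.1 (-2.0), der4 (-1.44), bip2 (-1.38) and bip1 (-1.04) had the direction of der2, and pdi5 (1.75) had the opposite one. Of all probe sets 22.5% were called here. With hybridization controls der2 (-0.75, adjusted p = 0.0536 in limma), der4 (-0.85) and bip2 (-0.79) lost their calls. The other probe set of der4 gave -0.53, and further probe sets of pdi4 (1.24) and pdi7 (1.14) were called in the direction of pdi5. The call of bip1 was lost with quantile normalization (-0.91), hybridization controls (-0.46), without replicate 1 (-0.97) and without the 2 embryo arrays with most zein signal (-0.99).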

How the results depend on the processing

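The 20 results of pdi3 and der2 in the 10 main comparisons were recomputed under 14 alternatives, and 271 of these values kept direction and side of the threshold. Exceptions follow, on the log2 scale, and their cause was not tested. Centring on hybridization controls moved the median of all probe sets, for embryo against endosperm at 20 DAP, from -0.16 to 0.65 and the share of calls that were higher from 48.3% to 84.6%. It gave der2 a difference of change with age of -0.75 (adjusted p = 0.0536 in limma), no longer called, and turned pdi3 to 0.41 there, to -0.036 for endosperm against non-seed tissues and to 0.0097 for endosperm at 25 against 20 DAP; the second probe set turned to -0.16 for endosperm at 15 against 10 DAP. With the 3′ to 5′ ratio as covariate pdi3 turned to -0.16, -0.058 and -0.088 for embryo against endosperm at 15, 20 and 25 DAP. Centring on medians turned it to -0.0081 and -0.051 at 20 and 25 DAP, and quantile normalization to -0.026 at 25 DAP. The second probe set turned to -0.0072 and -0.022 at 10 DAP under these scalings, and for endosperm against non-seed tissues to 0.13 and 0.24, and to 0.23 with the covariate. der2 in embryo at 25 against 20 DAP turned to -0.058 and -0.055. Leaving out a replicate number gave -0.20 to 0.017 for pdi3 in embryo and -0.076 to 0.026 in endosperm at 25 against 20 DAP, and -0.13 to 0.017 for the second probe set in endosperm against non-seed tissues. The second probe set gained calls with hybridization controls in embryo against endosperm at 20 and 25 DAP (1.46 and 1.37) and in embryo at 20 against 15 DAP (1.04), and in endosperm at 25 against 10 DAP with the covariate (1.01) and without replicate 1 (1.00).

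Counts of the 17 other ER genes moved by over 1.5 times in 21 of 280 recomputed counts. With hybridization controls the higher and lower counts for embryo against endosperm were 1 and 0 at 10 DAP, 2 and 2 at 15 DAP, 4 and 3 at 20 DAP and 6 and 3 at 25 DAP, in place of 0 and 2, 2 and 6, 1 and 8, and 1 and 7. Over all 17621 probe sets these calls were 2854 and 854, 4663 and 1375, 6581 and 1194, and 6912 and 1321. They stood in place of 2231 and 1195, 3172 and 2810, 3331 and 3565, and 3236 and 3766. For endosperm against non-seed tissues the ER counts were 0 and 4 in place of 3 and 2, and 5 were higher with either other scaling. Of all probe sets 1846 and 5199 were called with these controls, and 3275 were higher with quantiles and 3756 with medians. The ER counts were 4 and 2 in place of 1 and 5 for the difference of change with age, and 1 in place of 4 was higher in leaf. Over all probe sets these were 3812 and 944, and 2008. For endosperm at 25 against 10 DAP 0 in place of 3 ER genes were higher, and 1 with either other scaling. Of all probe sets 990 were higher there, 1604 with quantiles and 1426 with medians. With medians 4 in place of 2 ER genes were lower in embryo at 10 DAP, where 1742 of all probe sets were. der2 in endosperm at 15 against 10 DAP was 0.84 with these controls, under the fold threshold, and at 25 against 10 DAP 0.32 in place of 0.80. Endosperm arrays had brighter hybridization controls (log2 means of 10.9 to 11.6) than embryo arrays (10.4 to 11.2). With replicate number as a block, der2 at 20 DAP was -2.72 (adjusted p = 7.87e-19 in limma), and the block changed no call of pdi3 or der2. Taken over all tissues, same-numbered arrays did not deviate together (median r 0.0067, against -0.0033 for other numbers). This median over 273 pairs, with r from -0.47 to 0.50, cannot show whether embryo and endosperm of one age were paired by number.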
